A study of Mus musculus with 11 samples.

Results

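The genes described here make, clear, transport and sense adenosine: Entpd1, Nt5e, Ada, Adk, Adora2a, Adora2b, Slc29a1 and Dpp4. They were chosen by symbol, and all 8 were found among the 14604 genes listed for 11 libraries of sorted mouse regulatory T cells (Tregs). Outside the cell, CD39 (Entpd1) degrades ATP and ADP to AMP, and CD73 (Nt5e) splits AMP to adenosine. Adenosine is cleared by adenosine deaminase (Ada), which makes inosine, and by adenosine kinase (Adk), which returns it to AMP inside the cell. ENT1 (Slc29a1) carries nucleosides across the membrane, and CD26 (Dpp4) is a surface peptidase that anchors adenosine deaminase in humans. The receptors Adora2a and Adora2b raise cyclic AMP, and Tregs are known to use CD39, CD73 and adenosine to restrain other T cells.

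Tregs were sorted as live CD4+GITR+CD25+ cells from tumors and spleens of mice bearing a graft of MC38, a mouse colon adenocarcinoma line. The wild-type groups (3 spleen and 3 tumor libraries) carried CD177flox/flox, a floxed control with no Cre in its label. The knockout groups (3 spleen and 2 tumor libraries) carried CD177flox/flox/FOXP3-CreYFP, in which a Cre driven by Foxp3 deletes the Cd177 gene in Foxp3-expressing cells. All 4 groups thus shared the floxed alleles and the graft, and no group came from mice without a tumor. The labels give neither age nor sex, and Cd177 is not listed among the values used here, so the genotype labels were not checked from it. The methods take spleens from the mice that bore the tumors, without saying whether equal replicate numbers mark the same mouse. Values are the deposited log2(n + 1), in which n is an abundance summed per gene symbol. Whether n is per length is not stated, so levels are compared between libraries within a gene and not between genes.

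Summed markers of myeloid cells, of fibroblasts and of CD8 T and NK cells were higher in every tumor library than in any spleen library. This stands beside every tumor value given below. Of 10 Treg and T cell markers, 2 were higher and 6 lower in tumor (adjusted p under 0.05 from limma, a threshold that 78.9% of all genes passed), among them Foxp3, the lineage factor (6.35 ± 0.30 in spleen, n = 6, and 5.50 ± 0.55 in tumor, n = 5; all errors are SD unless named). With libraries set equal on T-cell genes the Foxp3 difference went from -0.85 to -0.49 and lost its call (adjusted p = 0.086 from limma). Cd4 was 7.72 ± 0.15 in spleen and 7.30 ± 0.25 in tumor, and Tnfrsf18, which encodes the sort marker GITR, was 6.43 ± 0.11 and 7.51 ± 0.30. Il2ra, which encodes the sort marker CD25, was 7.26 ± 0.18 and 6.996 ± 0.377, a difference of -0.27 that missed the threshold (adjusted p = 0.12 from limma). Il2ra was called lower with equal totals (-0.89), after median centring (-0.48) and after quantile normalization (-0.93), and without tumor knockout 1 (-0.40), and stood at 0.0993, not called, with libraries set equal on T-cell genes. Ctla4 was at 8.15 ± 0.21 and 8.72 ± 0.29, called higher (0.57, adjusted p = 0.0015 from limma). It stood below 0, not called, with equal library totals (-0.056) and after quantile normalization (-0.29). The kinase gene Lck differed most (8.36 ± 0.05 and 7.08 ± 0.38). With equal library totals 1 of the 10 was higher and 8 lower. With libraries set equal on T-cell genes (Cd3d, Cd3e, Cd3g and Cd4) 3 were higher and 3 lower. These genes are themselves among the 10, so the last count is partly fixed by the scaling. The summed Treg and T cell list lay between 10.86 and 11.01 in spleen and between 10.39 and 10.98 in tumor on the log2 scale. All 12 myeloid markers were higher in tumor, and their sum rose from between 8.11 and 9.01 to between 13.58 and 14.12. The lysozyme gene Lyz2 was at 4.75 ± 1.18 in spleen and 12.35 ± 0.30 in tumor, and Cd14 differed most (1.83 ± 0.61 and 10.02 ± 0.60). Of 6 fibroblast markers listed, 5 were higher in tumor, and their sum rose from between 2.32 and 2.64 to between 9.29 and 10.42, led by the collagen gene Col3a1 (0.27 ± 0.09 and 8.84 ± 0.52). Of 8 CD8 T and NK markers, 4 were higher and 1 lower, under each scaling except the one on T-cell genes (5 and 1), with Cd8a at 1.41 ± 0.30 in spleen and 5.40 ± 0.77 in tumor and Nkg7 at 4.50 ± 0.23 and 6.84 ± 0.60. The lower gene was the NK marker Klrb1c (2.91 ± 0.43 and 1.52 ± 0.30), called lower under each scaling, so the rise of the sum does not hold for each marker. No marker of these 4 lists that was listed stood at 0 in any library. The endothelial list had 2 higher (Cdh5 0.10 in spleen and 1.09 in tumor, Kdr 0.23 and 0.99) and 2 lower of 4 (Pecam1 5.999 and 4.28). Its sum fell from between 6.21 and 6.47 to between 4.71 and 5.07. The B cell list had 1 higher and 3 lower of 5 (Ms4a1 2.53 and 1.14, Cd79b 3.15 and 2.29). With equal totals it had 0 higher and 4 lower. The erythroid and platelet list had 1 higher and 4 lower of 6. The higher gene was Pf4 (2.35 and 8.69), and Hbb-bs fell most (6.62 and 2.81). The Cd79b call was lost without spleen wild type 3 (-0.86), spleen knockout 2 (-0.61), tumor wild type 2 (-0.70) or tumor wild type 3 (-0.70). In such bulk samples fewer cells of a type and less RNA per cell cannot be told apart, and the part of other cell types in the results was not tested.

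The sequence upstream of the start site is shown for the 3 genes with the largest differences between tumor and spleen, Adora2b, Dpp4 and Entpd1. The sequences are from RefSeq on GRCm38.p6 and are written 5′ to 3′ on the strand of the gene, and RefSeq windows were matched for 7 of the 8 genes. Capitals mark the core of the hypoxia response element, ACGTG or GCGTG on either strand. The Adora2b stretch is chr11:62248734-62248983 (plus strand), the Dpp4 stretch chr2:62412232-62412481 (minus strand) and the Entpd1 stretch chr19:40612234-40612365 (plus strand), the last one cut where an exon of the neighbour Tctn3 begins.
Adora2b: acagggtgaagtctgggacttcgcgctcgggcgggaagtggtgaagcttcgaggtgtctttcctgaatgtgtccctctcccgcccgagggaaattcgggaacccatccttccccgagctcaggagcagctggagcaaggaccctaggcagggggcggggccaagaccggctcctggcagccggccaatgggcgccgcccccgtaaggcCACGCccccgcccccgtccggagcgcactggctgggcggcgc
Dpp4: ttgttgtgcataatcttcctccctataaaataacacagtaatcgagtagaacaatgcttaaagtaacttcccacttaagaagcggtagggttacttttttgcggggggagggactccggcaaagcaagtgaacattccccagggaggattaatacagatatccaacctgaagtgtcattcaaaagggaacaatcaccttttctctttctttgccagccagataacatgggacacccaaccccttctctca
Entpd1: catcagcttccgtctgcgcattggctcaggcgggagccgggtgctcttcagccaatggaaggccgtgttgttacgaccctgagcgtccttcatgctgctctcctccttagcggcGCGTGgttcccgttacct
The Adora2b and Entpd1 stretches each held 1 hypoxia core, and the Dpp4 stretch held 0. Such a core stood in 38.6% of 32851 mouse promoter windows of 250 bases, so a match is common. The cyclic AMP response core TGACG, found in 17.8% of these windows, had 0 matches in the 3 stretches. For Entpd1 this rests on where the stretch was cut, since the whole window of 250 bases held 1 match on the reverse strand, from -135 to -131, and the window of its second start site held 1 more. An NF-kB-like pattern (GGG and CC with any 5 bases between them), found in 45.8% of windows, had 4 matches in the Adora2b stretch, counting both strands and overlaps, of which 1 overlapped the hypoxia core, and 0 in the others. These are descriptions of letters and not of binding.

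The first comparison asked how the adenosine genes differed between tumor and spleen Tregs. Adora2b, Entpd1 and Slc29a1 were higher in every tumor library than in any spleen library, and Dpp4 and Nt5e were lower. Of the 8 genes, 6 passed an adjusted p of 0.05 (limma with Benjamini-Hochberg adjustment over 13897 genes), 4 higher and 2 lower. This is no more than the background, since 78.9% of all genes tested passed the same threshold, 43.1% higher and 35.9% lower. The ranges of the tissues were apart for 5 of the 8 genes, and for 63.5% of all genes. The median difference of the 8 genes was 0.29 on the log2 scale, and that of all genes was 0.08. With equal library totals the calls of the 8 genes split into 3 higher and 3 lower, and those of all genes into 23.6% higher and 56.3% lower.

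**Figure D1:**
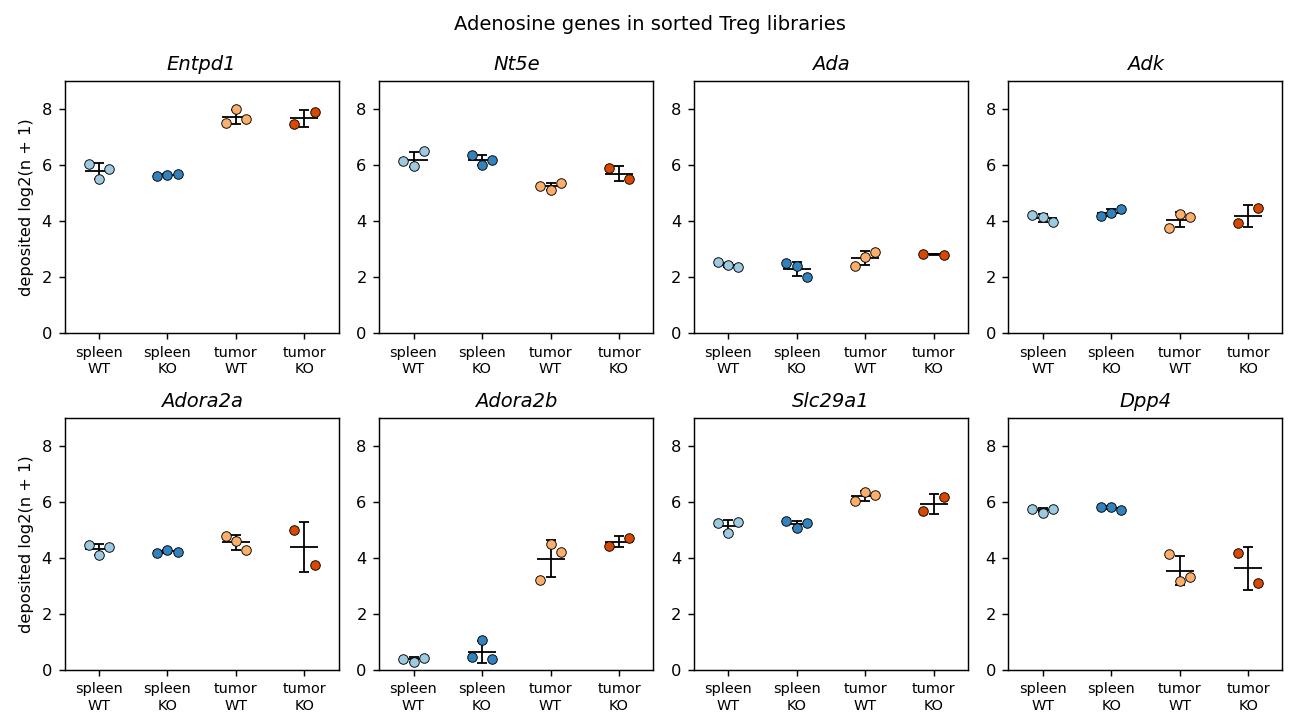
Deposited log2(n + 1) of the 8 adenosine genes in each library (points) by tissue and genotype, with the group mean (wide bar) and SD (error bar). The tumor libraries of Adora2b lay between 3.22 and 4.70 and its spleen libraries between 0.29 and 1.08, while those of Adk and Adora2a overlapped.

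Of the enzymes that make adenosine, the upstream one was higher and the downstream one lower in tumor. Entpd1 lies on chromosome 19 of GRCm38 from 40612366 to 40741602 on the plus strand. Its log2(n + 1) in spleen had a lowest value of 5.48, a median of 5.67 and a highest value of 6.03. In tumor it was 7.50, 8.005 and 7.66 in the wild-type and 7.45 and 7.88 in the knockout libraries. Every tumor library stood above every spleen library, and mean n was 52.2 ± 7.45 in spleen and 209 ± 35.3 in tumor, 4.01 times as high. Tumor minus spleen was 1.98 (standard error 0.12, adjusted p = 7.50e-09 from limma; exact permutation test, two-sided, p = 0.0043, the smallest possible for 6 against 5 libraries). Under the other scalings it lay between 1.36 and 2.34, called in each.

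Nt5e lies on chromosome 9 from 88327197 to 88372092 on the plus strand. Its spleen values had a lowest of 5.95, a median of 6.16 and a highest of 6.49. In tumor it was 5.26, 5.12 and 5.37 in the wild-type and 5.89 and 5.50 in the knockout libraries. Every tumor library stood below every spleen library, though knockout 1 (5.89) lay close to the lowest spleen library. Tumor minus spleen was -0.76 (standard error 0.14, adjusted p = 0.000189 from limma; exact permutation test, two-sided, p = 0.0043), and mean n was 1.69 times as high in spleen. It was -1.37 with equal library totals and -0.40 when libraries were set equal on the T-cell genes Cd3d, Cd3e, Cd3g and Cd4 (adjusted p = 0.043 from limma), past the threshold in both.

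The balance of the pair was also read within each library, where a common scaling factor nearly cancels. Entpd1 minus Nt5e on the log2 scale was -0.47 ± 0.23 in spleen and 2.27 ± 0.47 in tumor, a change of 2.74. The size of such a difference depends on gene length and is not a ratio of the proteins, but its change between tissues does not. Tumor libraries lay between 1.56 and 2.88 and spleen libraries between -0.76 and -0.11. The lack of overlap follows from the separation of each gene in opposite directions and is no further evidence. Nt5e minus Ada, which sets the last step of production beside deamination, moved from 3.82 ± 0.28 to 2.70 ± 0.27, also without overlap.

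On the deposited scale the clearing enzymes differed little between the tissues. Ada lies on chromosome 2 from 163726584 to 163750239 on the minus strand. Its spleen values had a lowest of 2.01, a median of 2.42 and a highest of 2.52. In tumor it was 2.41, 2.71 and 2.89 in the wild-type and 2.83 and 2.80 in the knockout libraries. Wild type 1 lay within the spleen range, and the other tumor libraries stood above it. Tumor minus spleen was 0.36 (standard error 0.12, adjusted p = 0.015 from limma; exact permutation test, two-sided, p = 0.017). This call depended on the scaling: the difference was 0.12 after quantile normalization and -0.16 with equal totals, and neither was called.

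Adk lies on chromosome 14 from 21052574 to 21448569 on the plus strand. It was between 3.96 and 4.42 in spleen (median 4.21), and in tumor it was 3.74, 4.26 and 4.14 in the wild-type and 3.92 and 4.47 in the knockout libraries. The tissues overlapped, and tumor minus spleen was -0.10 (95% confidence interval -0.37 to 0.18, adjusted p = 0.48 from limma; exact permutation test, two-sided, p = 0.48). Adk was called lower with equal totals (-0.69, adjusted p = 0.00073 from limma). It was also called lower after quantile normalization (-0.34) and after median centring (-0.32). On the T-cell reference it stood at 0.25, not called.

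The transporter Slc29a1 lies on chromosome 17 from 45585200 to 45599606 on the minus strand. Its exons overlap exons of Gm17080 on the other strand, whose reads cannot be told apart without strand. In spleen its lowest value was 4.88, its median 5.23 and its highest 5.30. In tumor it was 6.02, 6.36 and 6.24 in the wild-type and 5.66 and 6.17 in the knockout libraries, all above the spleen libraries. Mean n was 1.95 times as high in tumor, and tumor minus spleen was 0.93 (standard error 0.12, adjusted p = 9.04e-06 from limma; exact permutation test, two-sided, p = 0.0043). With equal totals it was 0.32 (adjusted p = 0.037 from limma).

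Of the receptors, Adora2b rose and Adora2a did not pass the test. Adora2b lies on chromosome 11 from 62248984 to 62266453 on the plus strand, just downstream of the first stretch printed above. It was near the lower end of the scale in spleen, with a lowest value of 0.29, a median of 0.41 and a highest of 1.08. In tumor it was 3.22, 4.47 and 4.19 in the wild-type and 4.43 and 4.70 in the knockout libraries. Mean n was 0.44 ± 0.33 in spleen and 18.5 ± 6.32 in tumor, and tumor minus spleen was 3.70 (standard error 0.24, adjusted p = 1.43e-08 from limma; exact permutation test, two-sided, p = 0.0043). It ranked 295 by rise, and 2.12% of the genes tested had a larger difference. With a pseudocount of 5 in place of 1 the difference was 2.06 and with 0.1 it was 5.16, both called, so its size on the log scale is set by the low spleen values.

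The spleen library with the highest Adora2b, knockout 2 at 1.08, also had the highest myeloid sum (9.01), B cell sum (5.62) and CD8 T and NK sum (6.33) of the 6 spleen libraries. The tumor library with the lowest Adora2b, wild type 1 at 3.22, had the lowest myeloid sum of the 5 tumor libraries (13.58). Without spleen knockout 2 and without tumor wild type 1 the gene was called as well, and over all libraries left out in turn the difference lay between 3.58 and 3.95. The order was not the same throughout: spleen wild type 1 had a myeloid sum of 8.99 with Adora2b at 0.38, and tumor knockout 1 had a lower myeloid sum (13.72) than tumor wild type 3 (14.03) with a higher Adora2b (4.43 and 4.19). The part of myeloid or B cells in the Adora2b values was not tested.

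Adora2a lies on chromosome 10 from 75316877 to 75334784 on the plus strand. It was between 4.08 and 4.45 in spleen (median 4.24). In tumor it spread more widely, at 4.78, 4.59 and 4.26 in the wild-type and 5.003 and 3.75 in the knockout libraries. The lowest and the highest of all 11 libraries were thus both tumor libraries of knockout mice. Tumor minus spleen was 0.22 (95% confidence interval -0.18 to 0.61, adjusted p = 0.29 from limma; exact permutation test, two-sided, p = 0.32). Without tumor knockout 2 it was 0.40 and was called (adjusted p = 0.014 from limma), and it was 0.56 on the T-cell reference (adjusted p = 0.0047 from limma) and -0.38 with equal totals, not called. Within a library, Adora2a minus Adora2b moved from 3.76 ± 0.30 in spleen to 0.27 ± 0.91 in tumor, with no overlap. The separation follows from the ranges of the single genes. The size of the change depends on the pseudocount, because Adora2b was so low in spleen.

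Dpp4 lies on chromosome 2 from 62330073 to 62412231 on the minus strand. Its exons overlap exons of Gm13561 on the other strand, whose reads cannot be told apart without strand. Its spleen values were close together, with a lowest of 5.61, a median of 5.74 and a highest of 5.82. In tumor it was 4.13, 3.15 and 3.32 in the wild-type and 4.17 and 3.09 in the knockout libraries. Every tumor library stood below every spleen library, and mean n was 4.53 times as high in spleen. Tumor minus spleen was -2.17 (standard error 0.19, adjusted p = 2.86e-07 from limma; exact permutation test, two-sided, p = 0.0043), rank 176 by fall among the genes tested. Under the other scalings it lay between -2.76 and -1.82, called in each.

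**Figure D2:**
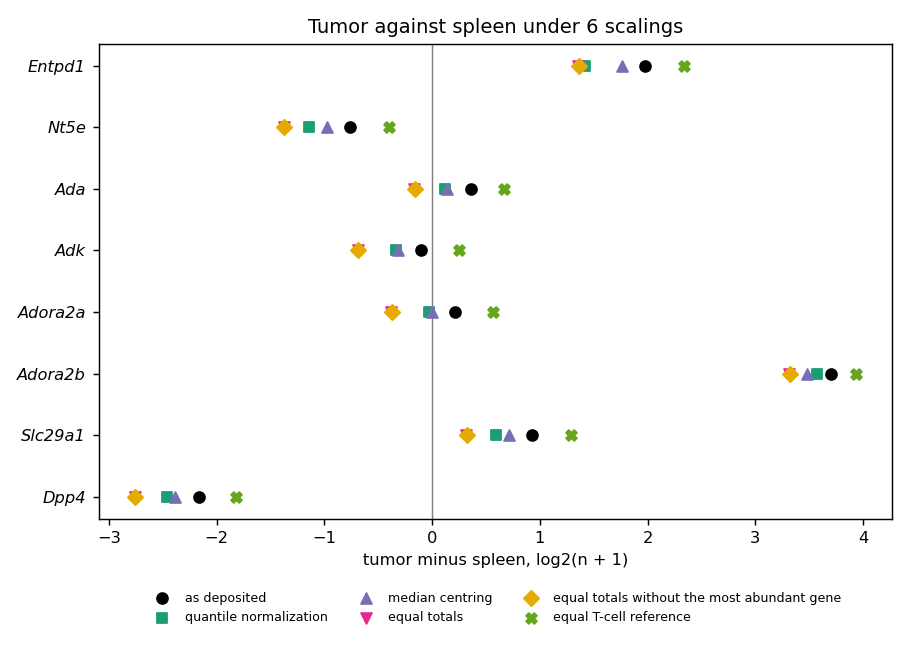
Tumor minus spleen on the log2(n + 1) scale for the 8 adenosine genes under 6 scalings of the libraries (a symbol for each). Entpd1, Adora2b and Slc29a1 lay above 0 and Nt5e and Dpp4 below 0 under all 6, while Ada, Adk and Adora2a lay on both sides.

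The spread among the 5 tumor libraries was described beside the marker sums. Wild type 1 and knockout 1 had the highest Treg and T cell sums, 10.98 and 10.95, against 10.39 to 10.61 in the others. The same libraries had the highest Dpp4 (4.13 and 4.17, against 3.09 to 3.32) and the highest Adora2a (4.78 and 5.003, against 3.75 to 4.59). They had the lowest Entpd1 (7.50 and 7.45, against 7.66 to 8.005), the lowest Slc29a1 (6.02 and 5.66, against 6.17 to 6.36) and the lowest Adk (3.74 and 3.92, against 4.14 to 4.47). They also had the lowest myeloid sums (13.58 and 13.72, against 13.94 to 14.12) and the lowest fibroblast sums (9.65 and 9.29, against 10.10 to 10.42). The other 3 genes did not separate these libraries from the rest. Nt5e was highest in knockout 1 (5.89), but wild type 1 (5.26) lay among the other libraries (5.12 to 5.50). Adora2b and Ada were lowest in wild type 1 (3.22 and 2.41), but knockout 1 (4.43 and 2.83) lay among the other libraries (4.19 to 4.70 and 2.71 to 2.89). With 5 libraries no correlation was computed, and the part of cell composition in this order was not tested.

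**Figure D3:**
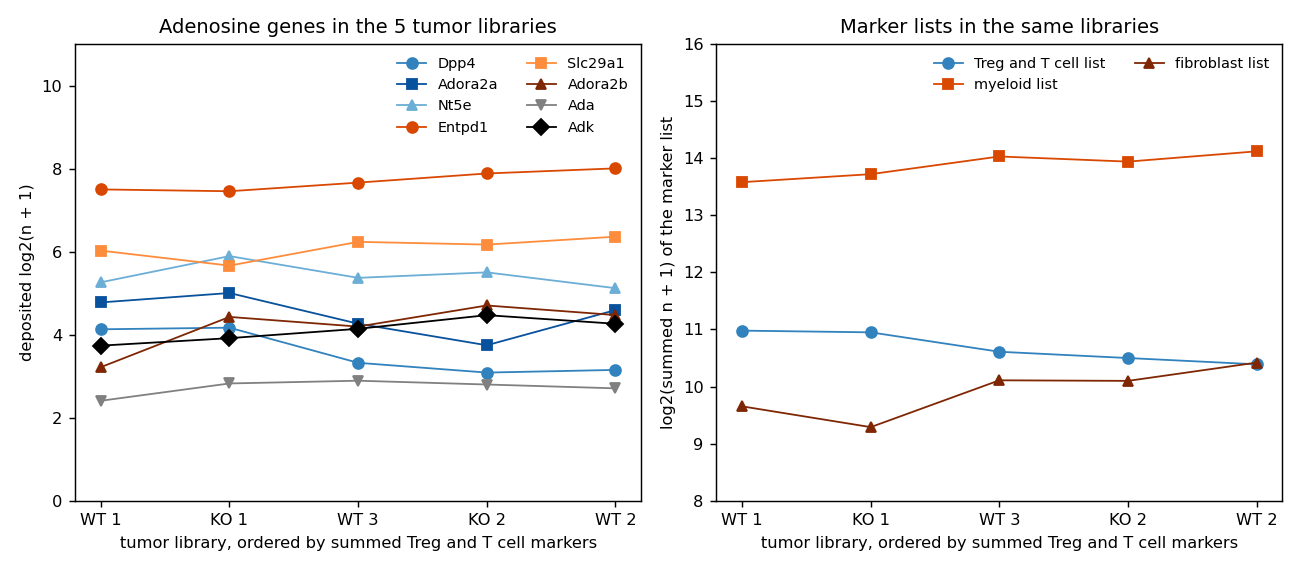
Left, deposited log2(n + 1) of the 8 adenosine genes in the 5 tumor libraries; right, log2 of the summed n + 1 of 3 marker lists in the same libraries, all ordered from the highest to the lowest Treg and T cell sum. Dpp4 is above 4 in wild type 1 and knockout 1 only, where Entpd1 and the myeloid sum are at their lowest.

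The genes most like each of 7 adenosine genes over the 11 libraries, once the mean of each tissue-and-genotype group had been taken off, were named as a description. For Dpp4 these were Cd6 (Pearson r = 0.991), a T-cell surface receptor, Crtam (0.988) and Sh2d2a (0.985), a T-cell adaptor. For Adora2b they were Nlrp3 (0.983), an inflammasome sensor, Arf2 (0.980) and Arhgap17 (0.9753). For Entpd1 they were Mib1 (0.985), Ppp4r1 (0.974) and Tmem67 (0.966), and for Nt5e they were Plcb4 (0.945), Fam110a (0.942) and Gm9817 (0.941). For Adora2a they were N4bp2l2, Zbtb46 and Smad7 (0.965 to 0.966), for Slc29a1 Ptgfrn, Mcm6 and Ankrd46 (0.964 to 0.977), and for Ada Tmem50a, Lsm1 and Ncstn (0.920 to 0.940). These values are the highest among all genes tested, share the same 11 libraries and their scaling, and carry no p. Taking off the group means leaves fewer free values than libraries. For Dpp4 they rest mostly on the tumor libraries (SD 0.07 in spleen and 0.53 in tumor).

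The design also asked whether the loss of Cd177 in Tregs altered the difference between tumor and spleen. In wild-type mice 5 of the 8 genes were called, 3 higher and 2 lower, with a background of 70.5% of all genes (39.2% higher and 31.3% lower). In knockout mice 6 were called, 4 higher and 2 lower, with a background of 65.7% (36.2% higher and 29.5% lower). Adora2b was 3.59 higher in wild-type (standard error 0.30) and 3.93 higher in knockout tumors (0.33), and Entpd1 1.93 (0.17) and 2.02 (0.19) higher. Dpp4 differed by -2.16 (0.28) and -2.15 (0.31), and Slc29a1 by 1.08 (0.15) and 0.72 (0.17).

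Nt5e differed by -0.94 (standard error 0.16, adjusted p = 0.00032 from limma) in wild-type and by -0.48 (0.18, adjusted p = 0.032 from limma) in knockout mice. The latter call was lost without spleen knockout 1 (-0.39), spleen knockout 3 (-0.49) or tumor knockout 2 (-0.29), and on the T-cell reference the difference was -0.014. The Slc29a1 call in knockout mice was lost without tumor knockout 2 (0.47) and with equal totals (0.095). Ada differed by 0.23 in wild-type mice (adjusted p = 0.24 from limma) and by 0.52 in knockout mice (adjusted p = 0.030 from limma), and the latter call was lost without spleen knockout 3 (0.37), tumor knockout 1 (0.50) or tumor knockout 2 (0.53). Adora2a in knockout mice went from 0.15 to 0.78 without tumor knockout 2, which was called (adjusted p = 0.0094 from limma), and to -0.48 without tumor knockout 1, which was not. Adk differed by -0.060 and -0.11, called in neither genotype. With 3 against 3 libraries an exact permutation test cannot go under 0.10, so limma alone was used within genotypes.

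**Figure D4:**
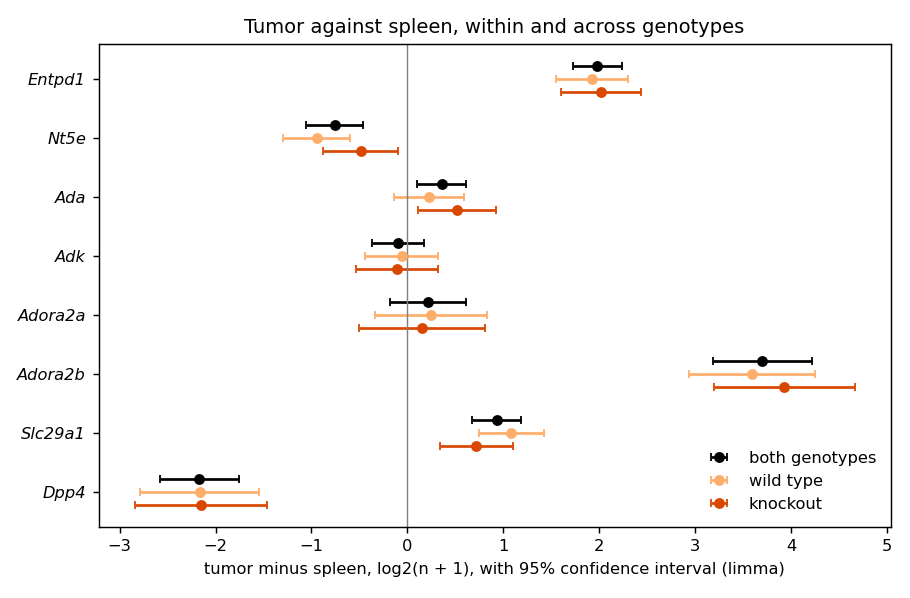
Tumor minus spleen on the log2(n + 1) scale with its 95% confidence interval from limma for both genotypes together, wild type and knockout. The intervals of the genotypes overlap for each of the 8 genes, and those of Ada in wild-type mice and of Adk and Adora2a in both include 0.

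The interaction of tissue and genotype, which tests whether these differences themselves differ, was called for 0 of the 8 genes by limma, and 0 of them had an unadjusted p under 0.05. Of all genes 0.0% were called, and 2.76% had an unadjusted p under 0.05. The interactions ran from -0.36 for Slc29a1 (95% confidence interval -0.87 to 0.15) to 0.46 for Nt5e (-0.065 to 0.99), so differences of this size were not detectable with these libraries. With a library left out they lay between -0.62 (without tumor knockout 2) and -0.11 (without tumor knockout 1) for Slc29a1, and between 0.26 (without tumor knockout 1) and 0.66 (without tumor knockout 2) for Nt5e.

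Within spleen, knockout against wild type was called for 0 of the 8 genes by limma (background 0.0%), 0 of them at an unadjusted p under 0.05 against 2.02% of all genes. The differences ran from -0.15 for Ada to 0.27 for Adora2b (95% confidence interval -0.39 to 0.93). They were -0.00027 for Ada without spleen knockout 3 and 0.0503 for Adora2b without spleen knockout 2. Within tumor it was called for 0 of the 8 genes (background 0.0072%, a single gene), with 1 at an unadjusted p under 0.05 against 4.56% of all genes. That gene was Nt5e, 0.45 higher in the 2 knockout than in the 3 wild-type libraries (95% confidence interval 0.055 to 0.84, adjusted p = 0.9997 from limma). Both knockout libraries (5.89 and 5.50) stood above the wild-type libraries (5.12 to 5.37), and the difference was 0.25 without knockout 1 and 0.64 without knockout 2. Adora2b was 0.60 higher (95% confidence interval -0.13 to 1.34) and Slc29a1 differed by -0.29 (-0.67 to 0.090), neither called. Adora2b was 0.23 higher without wild type 1 and 0.86 higher without wild type 2, and Slc29a1 differed by -0.037 without knockout 1 and by -0.54 without knockout 2.

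The other genes of adenosine and nucleotide handling were taken from lists of 73 genes, of which 61 were listed and 59 tested. Of these, 36 were higher and 14 lower in tumor (84.7%, beside 78.9% of all genes). With equal totals 25 were higher and 22 lower. Under all 6 scalings 34 genes were called the same way, 25 higher and 9 lower. The share of all genes called so is not given here, so this count has no background to be read against.

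Of 8 genes in the list labelled other ecto-enzymes 4 were higher and 3 lower, and with equal totals 3 and 4. The label is loose, since not every enzyme of the list, Entpd5 and Entpd7 among them, acts at the cell surface. Bst1, which encodes the NAD-consuming surface enzyme CD157, had the largest difference of any gene of these lists, from 0.41 ± 0.26 in spleen to 6.12 ± 0.53 in tumor (5.71, standard error 0.22). Enpp2 (autotaxin) rose by 1.91 and Entpd7 by 1.38, Entpd5 fell by 1.06, and all 4 were called under each scaling. Cd38, which starts another route to AMP from NAD, was 0.65 higher, but 0.060 and not called with equal totals, and Enpp1, the next enzyme of that route, differed by -0.10 (not called; -0.67 and called with equal totals, 0.23 on the T-cell reference).

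Of 6 genes of intracellular adenosine formation 3 were higher and 2 lower, and with equal totals 0 were higher and 4 lower. Nt5c3b, a nucleotidase, fell by 1.03. The nucleotidases Nt5c2 and Nt5c were 0.58 and 0.36 higher and Ahcy, which releases adenosine from S-adenosylhomocysteine, 0.57 higher, and all 3 stood below 0 with equal totals (-0.0038, -0.25 and -0.036).

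Of 11 deamination and salvage genes 9 were higher and 2 lower (7 and 2 with equal totals), with a median difference of 1.33 beside 0.08 for all genes. Pnp, which splits the inosine made by adenosine deaminase, rose from 4.61 ± 0.09 to 7.22 ± 0.27 (2.61, standard error 0.11). Xdh, which oxidises hypoxanthine further, rose by 2.38, and the adenylate kinases Ak4 and Ak1 rose by 3.11 and 1.87. These 4 were called under each scaling. Beside them, Ada itself differed by 0.36.

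Of 5 other nucleoside transporters 2 were higher and 2 lower (1 and 2 with equal totals). The concentrative transporters Slc28a2 and Slc28a3 fell by 1.35 and 0.93, and Slc29a3 (ENT3) rose by 0.87, all called under each scaling. Slc29a4 was 0.25 higher and lost its call without any of 7 libraries (spleen wild type 1 or 2, spleen knockout 1, 2 or 3, tumor wild type 1 or tumor knockout 2; 0.18 to 0.26) and with equal totals (0.061). Slc29a2 (ENT2) differed by 0.14, not called, and by -0.22 with equal totals. Of the other receptors, Adora3 was 1.75 ± 0.18 in spleen and 1.73 ± 0.27 in tumor (not called; -0.46 and called with equal totals, 0.23 on the T-cell reference). Adora1 stood at 0.30 ± 0.15 and 0.10 ± 0.07 and was too low to be tested.

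Of 19 genes of cyclic AMP signalling, downstream of both receptors, 12 were higher and 4 lower (median 0.74). With equal totals 9 were higher and 7 lower. Crem, a transcription factor that cyclic AMP induces, rose from 5.04 ± 0.20 to 8.43 ± 0.26 (3.39, standard error 0.12). The phosphodiesterases Pde4b, Pde8a and Pde4a, which degrade cyclic AMP, rose by 1.79, 1.48 and 1.42, called under each scaling. Pde7a, another phosphodiesterase gene, fell by 1.13, also called under each scaling.

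Of 9 genes of ATP release and P2 receptors 6 were higher and 1 lower (5 and 2 with equal totals; median 1.34). Gja1 (connexin 43) rose from 0.21 ± 0.11 to 4.01 ± 0.52, and P2ry14, P2ry12 and the ATP-gated channel P2rx4 rose by 2.88, 2.34 and 1.49, all called under each scaling. The lower gene was P2rx7, another ATP-gated channel, which fell from 5.63 ± 0.14 to 4.88 ± 0.17, also called under each scaling. The myeloid and fibroblast marker sums rose in the same 5 libraries, and their part in these lists was not tested.

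**Figure D5:**
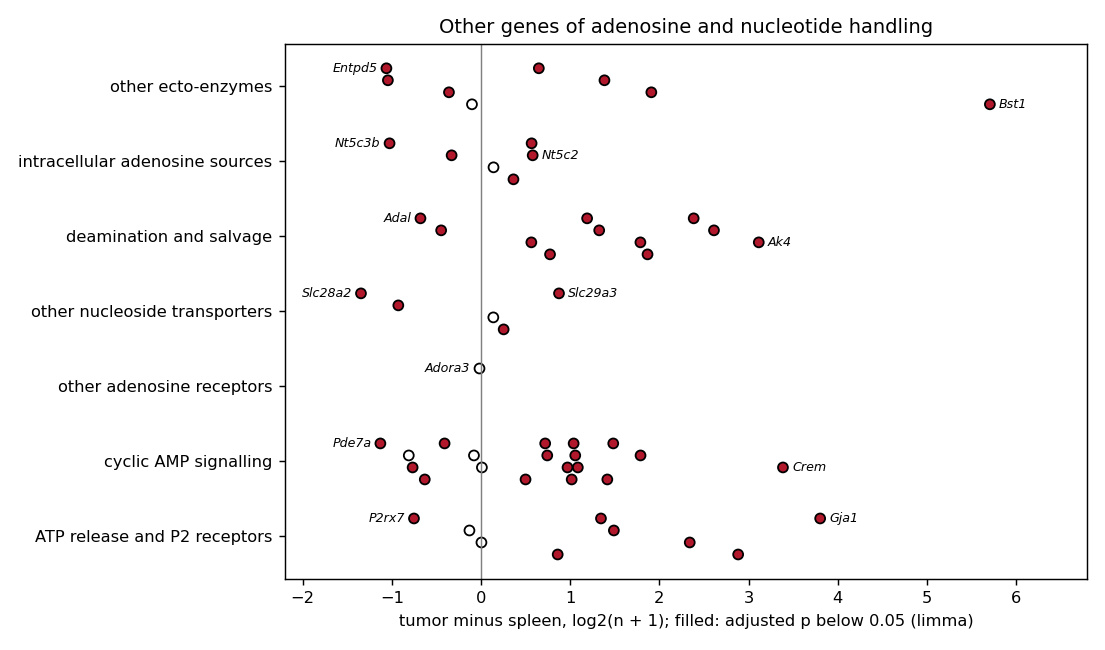
Tumor minus spleen on the log2(n + 1) scale for the other genes of adenosine and nucleotide handling by list, filled where the adjusted p was below 0.05 (limma), with the lowest and highest gene of each list named. Bst1 lies farthest to the right at 5.71 and Slc28a2 farthest to the left at -1.35.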

How the data were processed

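RNA of Tregs was sequenced after ribosomal RNA depletion in 6 spleen and 5 tumor libraries. Groups are the labelled tissue and genotype. The authors pseudoaligned reads with kallisto to mm10, processed them in sleuth 0.30.0 (per the labels), summed them by gene symbol and deposited log2(n + 1) values. How n was scaled, with which annotation and whether by strand is not given in the sources used here. Library totals of n were 712832 to 844331 in spleen and 1103159 to 1304548 in tumor, and Gm12896 alone took 31.4% to 42.4% of them. The methods state a read depth per library far above these totals, so the reads behind each value are not known and no counting interval is given. Nothing says that replicates are separate mice, so p-values measure the spread between libraries, which may be technical.

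The deposited log2 values were tested as they stand with limma 3.58.1 in R 4.3.3 (lmFit, eBayes with trend) over 13897 genes with a mean of at least 0.5 (707 removed), with Benjamini-Hochberg adjustment and a threshold of 0.05. Genotypes were pooled for tumor against spleen, and a 4-group model gave the other comparisons. The fit was also run on simulated data with independent noise and few altered genes. These data differ, since 78.9% of genes passed in tumor against spleen, so that run does not measure error rates here. Exact permutation tests used scipy 1.17.1 over 462 splits. The 8 genes and the lists were chosen with earlier results of these data known. Genes named beside the 8 are, per pathway list, the 4 largest called differences plus 8 fixed symbols, per marker list, the gene with the highest value in tumor and the most different gene plus Foxp3, Il2ra, Tnfrsf18 and Cd4, and the 3 genes most like a member. Cdh5, Kdr, Klrb1c, Hbb-bs, P2rx7 and Pde7a are named besides because they went the other way, and were not checked for outliers. Gene positions are from GENCODE M21. Alternatives changed the scaling, pseudocount (0.1 or 5), filter, variance trend, correction, covariates, replicate block and libraries, and equal totals without the most abundant gene were added after seeing the data.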

Additional observations from a re-analysis of the deposited data

Results flagged for a closer look

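In 116 groups (each gene named and each marker sum, in spleen and in tumor), 17 values stood apart from the others of their tissue by the gap between the extreme library and its neighbour, where chance gives about 5.8. All values are on the log2 scale. Among the adenosine genes, Ada was 2.006 in spleen knockout 3 (2.371 to 2.519 in the other spleen libraries), and Adora2b was 1.075 in spleen knockout 2 (0.2867 to 0.4402 in the others). Spleen knockout 2 also stood apart in the summed B cell markers (5.622, against 3.655 to 4.344), in Cd79b (4.381), in Cd8a (2.012) and in Ak1 (0.5051). Tumor wild type 1 stood apart in Pde4b (6.03, against 6.863 to 7.169), P2rx4 (6.159), Pecam1 (4.683) and the summed endothelial markers (5.065). Spleen wild type 1 was low in Pde4b (4.763) and Nt5c3b (5.612), and spleen wild type 3 was high in Entpd7 (3.247). Spleen knockout 1 was high in Pecam1 (6.237) and in the summed endothelial markers (6.47). Col3a1 was lowest in tumor knockout 1 (7.926) and Cd8a lowest in tumor knockout 2 (4.068). The causes were not tested.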

How the results depend on the processing

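Entpd1, Adora2b, Slc29a1, Nt5e and Dpp4 kept their direction in tumor against spleen under every alternative run, and they kept their call except that Nt5e lost it under Bonferroni (adjusted p = 1.0, limma). The median of all genes moved from 0.08 to -0.44 with equal totals and to 0.40 on the T-cell reference. Bonferroni also lowered the calls in tumor against spleen to 5051 of all genes and 30 of the pathway genes, and those of the 8 genes to 2 in wild-type and 2 in knockout mice. The share of all genes called under Bonferroni within a genotype is not given here. Changes of direction, with the cause not tested beyond the scaling itself, were as follows. With equal totals, and with equal totals without the most abundant gene, tumor minus spleen was -0.16 and -0.16 for Ada, -0.38 and -0.38 for Adora2a, -0.0356 and -0.0316 for Ahcy, -0.0565 and -0.0524 for Ctla4, -0.25 and -0.25 for Nt5c, -0.00379 and -0.000476 for Nt5c2, and -0.22 and -0.22 for Slc29a2. In wild-type mice it was -0.28 and -0.31 for Ada and -0.33 and -0.37 for Adora2a. In knockout mice it was -0.45 and -0.41 for Adora2a, and -0.0138 for Ada with equal totals. Quantile normalization gave -0.0287 for Adora2a (-0.00224 in wild-type and -0.0889 in knockout mice), -0.29 for Ctla4 and -0.0315 for Ada in wild-type mice. Median centring gave -0.00231 for Adora2a (-0.0537 in knockout mice), -0.0803 for Slc29a2 and -0.00296 for Ada in wild-type mice. The T-cell reference gave 0.25 for Adk (0.23 in wild-type and 0.35 in knockout mice), 0.23 for Adora3, 0.23 for Enpp1 and 0.0993 for Il2ra. With each library left out in turn, Adora3 lay between -0.12 and 0.0686, Adk in wild-type mice between -0.17 and 0.0949 and in knockout mice between -0.39 and 0.17, and Adora2a in knockout mice between -0.48 and 0.78. Of the 8 genes, 3 kept their direction under all alternatives in the interaction, 6 in knockout against wild type in spleen and 4 in tumor, with 0 calls under any. The correlation of deviations from the group means was -0.128 to 0.0375 over 5 pairs of same-numbered libraries. Over 10 pairs of other numbers it was -0.083 to 0.124. With so few libraries per group the deviations are tied to each other, so these values cannot tell whether equal numbers mark the same mouse. In the fit with the replicate block, Ada lost its call (0.28, adjusted p = 0.070 from limma), also in knockout mice (0.37, adjusted p = 0.18 from limma). Slc29a4 lost its call as well (0.25, adjusted p = 0.083 from limma). Adora3 was 0.0102, and 10512 genes were called in place of 10971. Spleen knockout 3 has no tumor library of its number, so the differences of this fit equal those without it (Adora3 0.0102 and Slc29a4 0.25).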
